A study of Mus musculus with 2 samples.

Results

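The miR-130 and miR-301 family is a group of microRNAs (miRNAs) that carry one seed, the stretch near the 5′ end of a miRNA that pairs with its target messenger RNAs. Members were taken by name as miR-130a, miR-130b and every name beginning miR-301, without star (minor) strands, which gave 4 names (mmu-miR-130a, mmu-miR-130b, mmu-miR-301a and mmu-miR-301b) of 566 mouse miRNA names on the array. They were measured in 2 RNA samples of C57BL/6J mice, each on 1 single-colour Agilent miRNA array labelled with Cy3. The first came from unfractionated marrow ("total BM"), and the other was LKS cells, the lineage-negative, Kit-positive and Sca1-positive fraction of marrow. They were purified over MACS columns before fluorescent sorting, and the fraction holds haematopoietic stem cells together with early progenitors. The labels give no treatment, no genotype beyond the strain, and neither the age nor the number of animals. With 1 array per group there is no replicate, so no p-value is given and each difference describes these 2 arrays.

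A miRNA guides the RNA-induced silencing complex to messenger RNAs that hold a match to its seed, and so lowers their stability and translation. MiRNAs with one seed can therefore share targets, although they come from different genes and may be made in different cells. In human blood cells miR-130a is known to act in stem cell self-renewal, where it represses the chromatin regulator TBL1XR1, and its level is known to fall as human progenitors become megakaryocytes.

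The mature sequences are shown because they separate what the members share from where they differ. Of the 4 members, 3 matched a mature miRNA of RefSeq (build GRCm38.p6). MiR-301b is named only. The array names carry no arm, and the sequences are those of the 3p arms, for which these older names stood. MiR-721, whose name lies outside the family, was the only other name among the 366 array names matched to RefSeq with the same seed. Sequences run 5′ to 3′, and capitals mark the seed, bases 2 to 8.
miR-130a: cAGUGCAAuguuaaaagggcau
miR-130b: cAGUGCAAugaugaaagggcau
miR-301a: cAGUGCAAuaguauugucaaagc
miR-721: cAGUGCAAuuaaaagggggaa
The seed AGUGCAA pairs with the target letters UUGCACU, and 7 of 1679 mature mouse miRNA names in that RefSeq table (0.417%) carry it.

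Outside the seed the sequences diverged to unequal degrees. Aligned from the 5′ end, miR-130a and miR-130b were the same at 20 of 22 bases (90.9%) and differed only by U11A and A13G, with the base of miR-130a first and positions counted from the 5′ end. MiR-301a matched miR-130a at 12 of 22 bases (54.5%), and after the first 8 bases at 4 of 14. MiR-721 matched miR-130a at 15 of 21 bases (71.4%). In each pair other than miR-130a with miR-130b the first difference was at base 10.

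The hairpins are shown for miR-130a and miR-721 because the shared seed sits on opposite arms of their precursors. Capitals mark the mature miRNA in the RefSeq hairpin (build GRCm38.p6).
Mir130a: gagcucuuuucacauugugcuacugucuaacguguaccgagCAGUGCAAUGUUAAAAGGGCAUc
Mir721: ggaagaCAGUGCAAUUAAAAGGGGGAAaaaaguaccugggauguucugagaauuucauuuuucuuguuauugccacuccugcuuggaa
The mature miR-130a lies at bases 42 to 63 of 64, on the 3p arm, and the mature miR-721 at bases 7 to 27 of 88, on the 5p arm. The genes also lie apart. By the RefSeq gene table of GRCm38.p6, Mir130b and Mir301b are neighbours inside the span of the gene 2610318N02Rik, and Mir301, the gene of miR-301a, lies inside that of Ska2, which encodes a kinetochore protein. Mir721 lies inside the span of Cux1, a homeobox gene, and Mir130a overlaps no other gene, with Ypel4 and Gm19426 within 10 kb. Coordinates are left out because the array files state no build.

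Signals are in linear intensity units, and the error given with each is the one in the authors' deposited table, which covers technical error only. Log2 ratios are LKS over total BM after each array was divided by the 75th percentile of its signals for the 93 mouse names that both arrays detected, 399 for total BM and 242 for LKS. This raised every log2 ratio by 0.72 over the signals as deposited. It left the median of the 93 at 0.07 and their middle part, from the lower to the upper quartile, between -0.66 and 0.69. The rule for calling a miRNA higher or lower was a 2-fold difference. Probes differ in affinity, so levels are compared between arrays for each miRNA and never between miRNAs.

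The members differed in how they compared between the arrays. MiR-130a was far brighter in LKS cells, and miR-130b gave nearly equal signals as deposited. MiR-301a was dimmer in LKS cells, and miR-301b was detected on neither array. Detection calls were made for 3 of the 4 members in total BM and for the same 3 in LKS cells, against 25.6% and 17.3% of all 566 mouse names, and 16.4% of the names were called on both arrays. Of the 3, 1 was at least 2-fold higher in LKS cells, against 18.3% of the 93 shared miRNAs, and 1 was at least 2-fold lower, again against 18.3%. That makes 2 of 3 past the rule in either direction, against 36.6% of the 93, and counts this small cannot be told from that background.

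**Figure D1:**
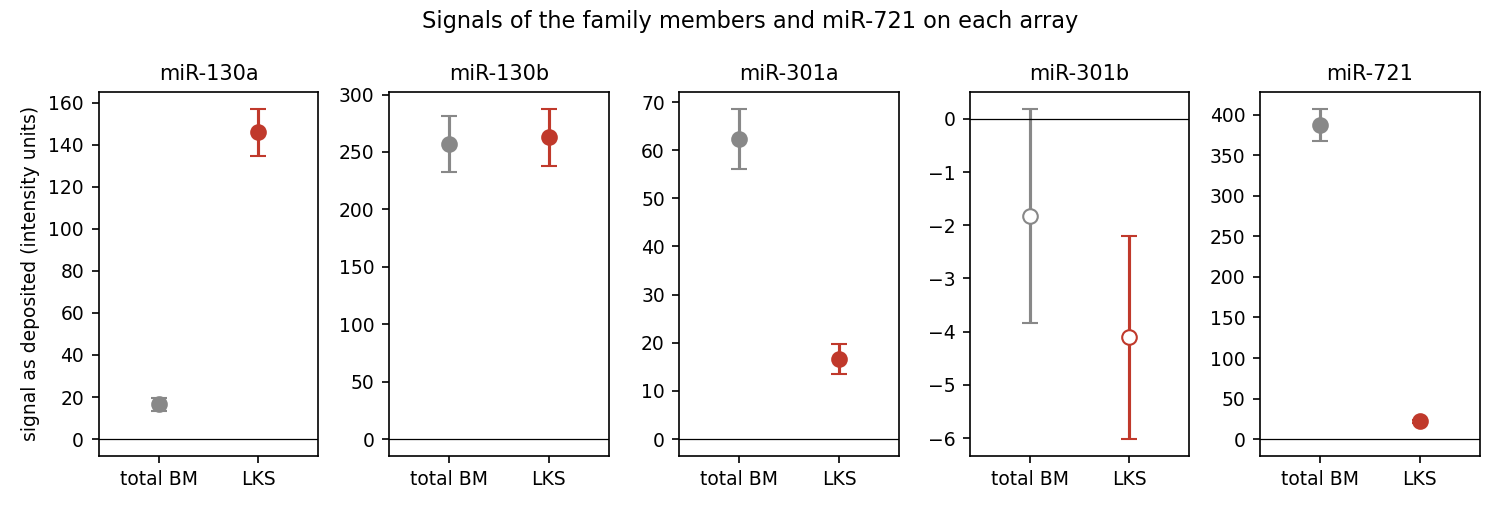
Signal as deposited (linear intensity units) of the 4 family members and of miR-721 on the total BM array (grey) and the LKS array (red), with bars for the deposited technical error, filled points for detected and open points for undetected signals, and a vertical scale of its own in each panel. MiR-130a rises from 16.6 to 146, miR-130b stays near 260 (257 and 263), miR-301a falls from 62.3 to 16.7, miR-301b lies below 0 on both arrays, and miR-721 falls from 388 to 21.9.

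MiR-130a read 16.6 ± 3.13 units in total BM and 146 ± 11.3 units in LKS cells. The LKS signal was higher as deposited, and the 2 signals were 11.1 combined errors apart. Its scaled log2 ratio was 3.86 ± 0.29, a 14.5-fold difference, and without scaling it was 3.13, or 8.78-fold. This was the third highest ratio of the 93, behind miR-196b and miR-99a. Its direction held under all 7 other ways of putting the arrays on one scale, with log2 ratios from 2.95 to 5.97. The total BM signal was 5.31 times its error, so the denominator of this ratio is faint. It also lay under the brightest control or viral probe without a detection call on that array (78.9 units). Against that limit, chosen after the data were seen, miR-130a was at least 3.05-fold higher in LKS cells under the main scaling. On the signals as deposited this bound is smaller, since 146 units against 78.9 does not reach 2-fold. LKS cells are themselves part of whole marrow, and in bulk samples like these fewer cells of a type and less RNA per cell cannot be told apart.

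The 7 highest ratios of the 93 all came from faint total BM signals, between 7.43 and 24.2 units. The median total BM signal was 125 over the 93 and 41.2 over all names detected there. The part of this faintness in the ratio of miR-130a was not tested. The 5 shared miRNAs with total BM signals nearest to that of miR-130a were miR-340-3p, miR-99a, miR-503, miR-151-5p and miR-221, at 14.7 to 19.9 units. Of these, miR-99a had a log2 ratio of 3.92 ± 0.31 and miR-221 of 1.38 ± 0.28. MiR-151-5p was at 0.59 ± 0.45, and miR-340-3p and miR-503 were at -0.61 ± 0.52 and -0.61 ± 0.78.

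MiR-130b read 257 ± 24.3 units in total BM and 263 ± 24.98 units in LKS cells. As deposited these signals differed by 0.16 combined errors, less than the error of either. After scaling the log2 ratio was 0.76 ± 0.19, a 1.69-fold difference below the 2-fold rule, which placed it at rank 21 of 93 from the highest. Only after scaling did the signals of the arrays differ by more than their errors. On the LKS array, 22 of the 93 shared miRNAs gave a higher signal than in total BM as deposited, and miR-130b was among them with a log2 ratio of 0.03. Relative to the median of the 93 shared miRNAs the scaled log2 ratio of miR-130b was 0.68. Scaling on the median of the shared miRNAs put it just past the 2-fold rule, at 1.002.

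The star strand of the miR-130b hairpin, miR-130b*, is the only other product of these hairpins on the array. It read 2.26 ± 2.02 units in total BM and 2.38 ± 1.92 units in LKS cells, near 1 error above 0, and it was called on neither array. It therefore adds no second measurement of the miR-130b hairpin.

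MiR-301b, the genomic neighbour of miR-130b, read -1.82 ± 2.02 units in total BM and -4.11 ± 1.91 units in LKS cells. Both values lie below 0 after the background subtraction, and 416 of the 566 mouse names (73.5%) were likewise called on neither array. With 2 errors added, the signals reached 2.21 and -0.28 units. MiR-301b was thus not detectable at this signal on either array, while miR-130b was called on both. No ratio is given for it.

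MiR-301a read 62.3 ± 6.33 units in total BM and 16.7 ± 3.17 units in LKS cells. The LKS signal was lower as deposited, with a difference (LKS minus total BM) of -6.45 combined errors. The scaled log2 ratio was -1.18 ± 0.31, a 2.26-fold lower level in LKS cells, and the unscaled one was -1.90, or 3.74-fold. The scaled ratio lies within 1 error of the 2-fold rule. Both signals lie under the brightest undetected control or viral probe of their array (78.9 units on total BM and 67.8 on LKS). Relative to the median of the 93 shared miRNAs the log2 ratio was -1.25, at rank 15 from the lowest. The deficit was under 2-fold with median scaling (-0.93), quantile normalization (-0.85) and a recentred background (-0.85), and the sign turned with scaling on the 75th percentile of all mouse miRNAs (0.94), which moved the median of the 93 to 2.19.

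**Figure D2:**
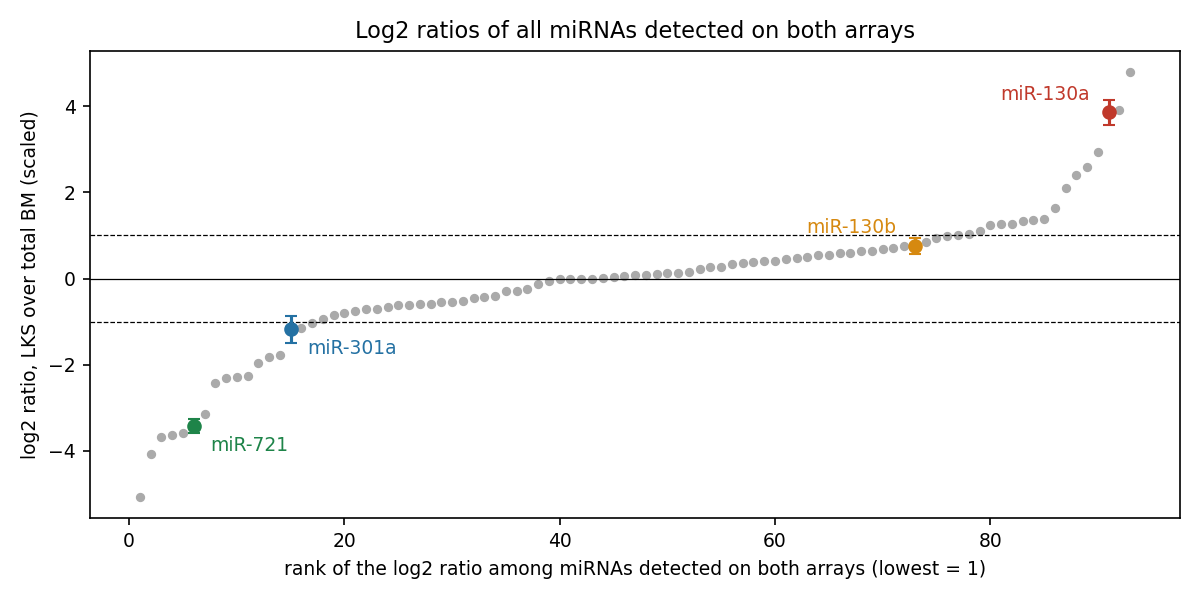
Scaled log2 ratio of LKS over total BM (vertical axis) of the 93 miRNAs detected on both arrays, ranked from the lowest, with dashed lines at 2-fold and bars for the propagated technical error of the named miRNAs. MiR-130a (3.86) lies near the top, miR-130b (0.76) inside the 2-fold lines, miR-301a (-1.18) just below the lower line and miR-721 (-3.42) near the bottom.

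The distances between the members' ratios do not depend on a single scaling factor per array. The log2 ratio of miR-130a exceeded that of miR-130b by 3.10 ± 0.35, or 8.59-fold, although their mature sequences differ at 2 bases. It exceeded that of miR-301a by 5.04 ± 0.43, or 32.8-fold. The log2 ratio of miR-130b exceeded that of miR-301a by 1.93 ± 0.37, or 3.82-fold. These are all 3 pairs of detected members, and each distance was over 5 times its technical error (8.82, 11.8 and 5.28). The order miR-130a, miR-130b, miR-301a held under quantile normalization, a recentred background and the authors' deposited value table. There the distances were 2.83 to 3.59 for miR-130a over miR-130b, 4.41 to 5.35 for miR-130a over miR-301a, and 1.58 to 1.76 for miR-130b over miR-301a. Variation between preparations or animals is not in these errors. Against the brightest undetected control or viral probe, miR-130a had only a bound (log2 ratio 1.61) and miR-301a had no ratio. Under that limit none of these distances has a fixed value.

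MiR-721, known in mice as a product of Th17 cells in myocarditis, has the same seed but went the other way from miR-130a. It read 388 ± 19.7 units in total BM and 21.9 ± 2.22 units in LKS cells, a difference of -18.4 combined errors. Its scaled log2 ratio was -3.42 ± 0.16, or 10.7-fold lower, the sixth lowest of the 93. Ratios near it were those of miR-494 (-3.59), miR-712 (-3.62), miR-1224 (-3.68) and miR-574-5p (-3.14), none of them among the names found with this seed. A low ratio was thus not particular to miR-721. Its ratio kept its sign under every scaling run, from -4.15 to -1.31. Its LKS signal was under the brightest undetected control or viral probe of that array (67.8 units). Against that limit miR-721 was at least 3.47-fold lower under the main scaling. The distance between miR-130a and miR-721 was 7.28 ± 0.34 on the log2 scale. Across the 4 detected names with this seed, the log2 ratios thus ran from -3.42 to 3.86, against a span of -5.06 to 4.79 over all 93 shared miRNAs. Whether each probe also catches other RNAs was not tested.

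**Figure D3:**
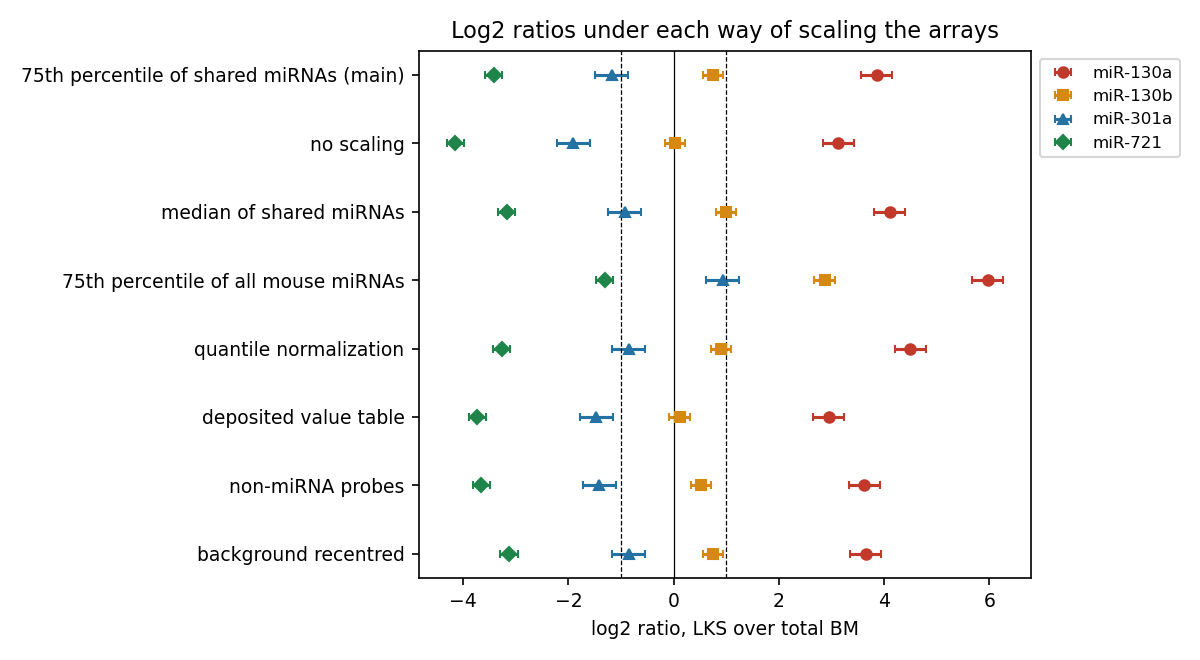
Log2 ratio of LKS over total BM (horizontal axis) of miR-130a, miR-130b, miR-301a and miR-721 under the main scaling and 7 alternatives (vertical axis), with dashed lines at 2-fold and bars for the technical error propagated from the signals as deposited, drawn alike in every row. The order of the 4 miRNAs is the same in every row, but a single factor per array cannot change it. Only quantile normalization, the deposited value table and the recentred background could have done so. Their position against 0 shifts with the scaling: miR-301a runs from -1.90 to 0.94 and miR-130b from 0.03 to 2.87.

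Other miRNAs hold 6 of the 7 seed bases shifted by one position, and are shown because such miRNAs can pair with overlapping target letters. Capitals mark the bases shared with the miR-130 seed.
miR-19a: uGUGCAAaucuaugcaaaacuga
miR-19b: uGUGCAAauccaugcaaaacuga
miR-148a: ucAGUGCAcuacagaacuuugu
MiR-19a and miR-19b, products of the miR-17-92 cluster, which is known to act in lymphoma, hold GUGCAA at bases 2 to 7. MiR-19b read 1044 ± 97.0 units in total BM and 1368 ± 127 units in LKS cells, with a log2 ratio of 1.11 ± 0.19, and miR-19a had 128 ± 10.1 and 109 ± 8.63, with 0.49 ± 0.16. MiR-148a, known to repress DNA methyltransferases, holds AGUGCA at bases 3 to 8. Its signals were 65.04 ± 5.59 and 51.2 ± 4.69, with a log2 ratio of 0.38 ± 0.18. As deposited, miR-19a and miR-148a were slightly dimmer in LKS cells (-0.23 and -0.35) and miR-19b slightly brighter (0.39). MiR-148b, miR-152 and miR-291b-3p, which also hold AGUGCA there, were detected on neither array. MiR-350 matched through its 5p arm only, and the array name does not say which arm it measures. Its log2 ratio was -0.86 ± 0.43. The detected names with a shifted seed thus lay between -0.86 and 1.11, inside the span of the members of the miR-130 and miR-301 family.

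The miRNAs whose ratio over the 2 arrays was nearest to that of each member differed between members. For miR-130a they were miR-99a (3.92), miR-542-5p (2.93), miR-196b (4.79), miR-126-3p (2.58) and miR-181c (2.40). All 5, like miR-130a, belong to a published list of 11 stem and progenitor miRNAs. The list's 7 shared members are the 7 highest ratios of these arrays, so this membership follows from those ranks and adds nothing to them. The list's other 4 members were called in LKS cells only. Whether the list was itself drawn from these arrays was not checked. For miR-130b they were let-7a (0.75), let-7f (0.70), miR-720 (0.69), miR-20b (0.86) and miR-23b (0.65). For miR-301a they were miR-16 (-1.15), miR-361 (-1.03), miR-15a (-0.95), miR-350 (-0.86) and miR-500 (-0.81). Likeness over 2 arrays is one number per miRNA and describes these arrays only.

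The stem and progenitor list therefore gives no separate account of miR-130a. Another list, also drawn up with earlier results of these arrays known, holds 6 miRNAs reported to fall as human progenitors become megakaryocytes. Of these, miR-130a, miR-126-3p (2.58) and miR-10a (1.33) passed the 2-fold rule with higher LKS levels, miR-20a was at 0.98, and miR-10b and miR-17 were called on neither array. That is 3 of 4 detected, against 18.3% of the 93, with miR-130a and miR-126-3p among the 7 highest ratios above. MiR-130a is itself in this count and in the median that follows, so neither gives a separate account of it. The median of the 4 detected was 1.96 after scaling and 1.23 without it, against 0.07 and -0.65 over the 93. Markers of mature cells moved the other way. The erythroid miR-451, miR-144 and miR-486 were called in total BM (260, 17.7 and 32.2 units) and in none of the LKS readings (3.67, -6.84 and -7.42), and the myeloid miR-223 was 5.34-fold lower in LKS cells. Of the lymphoid names, miR-342-3p was lower by 4.94-fold, whereas miR-150 was called in total BM only (17.7 against -3.70 units). Of the endothelial and megakaryocytic names beside miR-126-3p, miR-126-5p was called on neither array, and none of 4 stromal names was called. The part of this change in cell make-up in the differences of miR-130a, miR-301a and miR-721 was not tested.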

How the data were processed

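Per the file headers, the authors deposited a total gene signal (linear intensity), its error and a detection call of 0 or 1 for each name. Signals below 0 show that background had been subtracted. Per the labels, the miRNeasy kit and Agilent's labelling protocol were used. No source used here gives the scanner, the extraction software or the rule of the call. The authors also deposited log2-like values, which ranked all 576 names as the signals did on both arrays (column medians 1.46 for total BM and 0.998 for LKS). Their centring is not given either.

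Ratios, propagated errors and counts were computed in Python 3.11.15 with pandas 2.3.3 and numpy 2.4.6. The counting code was run on simulated arrays, in which the changed miRNAs were all brighter in total BM than miR-130a. That run does not cover changes in miRNAs as faint there as miR-130a. Of the array, 145 names were called in total BM (summed signal 52484) and 98 in LKS cells (23256), and the number of arrays, 1 per group, limits the precision. Names were matched to RefSeq tables of GRCm38.p6. Named miRNAs were the members, their star strands, names with the same or a shifted seed, the genomic neighbour, the 5 nearest in ratio or in total BM signal, and list members. Members and lists were chosen with earlier results of these data known. Alternatives changed the scaling, the background, the fold threshold and the detection rule.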

Additional observations from a re-analysis of the deposited data

How the results depend on the processing

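No paired analysis was possible because there was 1 array for either group, which also precluded leaving out an array. The order of the detected members held under every way of putting the arrays on one scale, while distances from 0 moved. Only quantile normalization, the recentred background and the authors' deposited value table could have changed that order. It could not be read under the limit of the highest undetected control or viral probe, where miR-301a had no ratio. For miR-130a the log2 ratio of 3.86 became 3.13 without scaling, 2.95 in the authors' deposited value table, 4.49 with quantile normalization and 5.97 with the 75th percentile of all mouse miRNAs. For miR-130b 0.76 became 0.032 without scaling, 0.11 in the authors' deposited value table, 0.53 with non-miRNA probes, 1.002 with median scaling and 2.87 with the percentile of all miRNAs. For miR-301a -1.18 became -1.90 without scaling, -0.85 with quantile normalization, -0.85 with a recentred background, and 0.94 with the percentile of all miRNAs, which turned its sign. That percentile takes in undetected miRNAs. For miR-721 -3.42 became -4.15 without scaling, -3.18 with median scaling, -1.31 with the percentile of all miRNAs, -3.73 in the authors' deposited value table, -3.65 with non-miRNA probes and -3.13 with a recentred background. Each setting with a single factor per array (none, median, percentile of all miRNAs, non-miRNA probes) shifts every log2 ratio by the same amount. Causes of the shifts under the other settings were not tested.

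The distance of miR-130a from miR-130b became 3.59 with quantile normalization. That of miR-130a from miR-301a became 4.41 in the authors' deposited value table and 4.50 with a recentred background. That of miR-130a from miR-721 became 7.76, 6.68 and 6.78 with quantile normalization, deposited values and recentring. The count of members at least 2-fold higher became 2 with median scaling, with the percentile of all miRNAs and at a 1.5-fold threshold. The count lower became 0 with median scaling, the percentile of all miRNAs, quantile normalization, a recentred background and a 4-fold threshold. Over all shared miRNAs, 17 higher and 17 lower became 7 and 36 without scaling, 77 and 7 with the percentile of all miRNAs, and 7 and 28 in the deposited table. Quantile normalization gave 29 higher, a 1.5-fold threshold 28 and 27, a 4-fold threshold 7 and 11, and all miRNAs with signals above 0 gave 39 lower. Requiring a signal above the highest undetected control or viral probe (78.9 units on total BM, 67.8 on LKS) left 1 member detected for total BM and 2 for LKS cells. Under this limit lay miR-130a in total BM, miR-301a on both arrays and miR-721 in LKS cells. This limit was also used as a floor under the main scaling, an alternative chosen after seeing the data. The log2 ratio of miR-130a then became a bound of 1.61 and that of miR-721 one of -1.79, and miR-301a had none. By the deposited calls no member was detected on 1 array only, so the planned other floor gave no value.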
